A study of Homo sapiens with 30 samples.

Results

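The 44 genes described here encode the machinery that licenses origins of DNA replication and runs the replication fork. They were taken by gene symbol from a table of 26228 genes measured by RNA-Seq in the human neuroblastoma (NB) cell line SH-EP and its derivatives. The members were 5 subunits of the origin recognition complex (ORC1, ORC2, ORC3, ORC5, and ORC6), the licensing factors CDC6 and CDT1 with the CDT1 inhibitor GMNN, the 6 subunits of the MCM2-7 helicase, MCM8, MCM10, the firing kinase CDC7 with its activator DBF4, CDC45, GINS1 to GINS4, the clamp PCNA with its loader subunits RFC1 to RFC5, 8 subunits of primase and of DNA polymerases alpha, delta, and epsilon, the flap endonuclease FEN1, the ligase LIG1, RPA1 to RPA3, and the transcription factors E2F1 and E2F2. Of the 5 lines, SH-EP was the parental line, and the other 4 were stable derivatives made by retroviral transfer that expressed WT, T58A, S62A, or T58A S62A MYCN from an exogenous promoter. The mutants replace the phosphorylation sites T58, S62, or both with alanine. Whether each derivative was a clone or a pool is not given in the sources used here, and each line stands for 1 derivation. Each line was grown with DMSO or with 1 μM CYC065, an inhibitor of CDK9 and CDK2, for 6 hours, and 3 libraries were made from each of the 10 groups, giving 30.

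Replication origins are licensed in G1 phase. ORC marks the origin, CDC6 and CDT1 load the MCM2-7 ring around DNA, and geminin (GMNN) holds CDT1 inactive until the next cycle. CDC7 with DBF4 and the CDKs then switch the ring on together with CDC45 and GINS, polymerase alpha with primase starts each strand, RFC loads the PCNA clamp for the replicative polymerases, RPA coats single-stranded DNA, and FEN1 and LIG1 join the Okazaki fragments. Many of these genes are transcribed as cells enter S phase under control of E2F factors, and several are known targets of MYC family proteins.

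MYCN was listed at 0 FPKM in all 6 SH-EP libraries and was between 5.08 and 20.1 FPKM in the 24 libraries of the derivatives, which goes with their labels. In DMSO the adrenergic markers PHOX2A, TH, and DBH were at or near 0, with none above 0.425 FPKM, whereas the adrenergic markers GATA3 and HAND2 reached 9.45 and 89.3 FPKM. The mesenchymal markers VIM and PRRX1 were between 1305 and 2540 FPKM and between 34 and 117 FPKM. Read totals are not known from these values. Low FPKM values gave a relative depth of 0.470 to 1 for DMSO and 0.293 to 0.554 for CYC065 libraries, where 1 is the deepest. All 6 SH-EP libraries carried an index sequence that a derivative library also carried, so libraries with the same index were probably pooled apart. The labels name no pool, so an effect of library pool cannot be told apart from one of the parental line. Nothing in the labels says that the 3 libraries of a group came from separate cultures, so p-values measure the spread between these libraries, which may be technical. Libraries are called a, b, and c below, which are only names.

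All 44 members had a mean of at least 1 FPKM (fragments per kilobase, scaled to the fragments of the library, so a level set per length) and were tested together with the other genes, 11575 in all. In SH-EP in DMSO, PCNA was the most abundant at 174 ± 5.3 FPKM (mean ± SD, n = 3), followed by MCM7 at 116 ± 3.49, POLD2 at 87.5 ± 5.16, and FEN1 at 78.6 FPKM. The 6 subunits of the MCM2-7 ring, which assemble in equal numbers, lay between 40.8 (MCM6) and 116 FPKM (MCM7). The least abundant were E2F2 at 2.69 ± 0.115, POLE2 at 3.91, GINS4 at 6.69, and POLA1 at 7.2 FPKM. FEN1 and PRIM1 overlap FADS2 and NACA on the same strand, and MCM8, POLA2, and POLD1 overlap loci named only by an Ensembl identifier, so the reads of these 5 genes could be split in counting.

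The first comparison asked how the members differed between the MYCN lines and parental SH-EP in DMSO. On FPKM as deposited, which are relative to the total of each library, the members were higher in the MYCN lines, with a median log2 change of 0.41 for WT, 0.27 for T58A, 0.41 for S62A, and 0.33 for the T58A S62A line, where the median of all genes was 0.05 to 0.07; on spike-in scaled FPKM all 44 values were negative in each line. By limma with a Benjamini-Hochberg adjusted p under 0.05, 38 members were higher in WT (31.6% of all genes tested were), 27 in T58A (30.9%), 37 in the S62A line (31%), and 30 in the T58A S62A line (31.2%) on FPKM as deposited. None was lower, where 22.6%, 23.3%, 23.4%, and 24.1% of all genes were. Without T58A S62A DMSO library a, 1 member was lower in that line.

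Scaling decided the sign. ERCC spike-ins, synthetic RNAs added by cell number, took a smaller part of the SH-EP libraries than of the derivatives' libraries. With the spike-ins made equal, the median of all genes against SH-EP moved from 0.07 to -1.18 for WT, from 0.05 to -0.89 for T58A, from 0.06 to -1.88 for S62A, and from 0.06 to -0.76 for the T58A S62A line. On that scale 43, 38, 44, and 29 members were lower in the 4 lines in that order, where 88.7%, 78%, 95.1%, and 70.2% of all genes were, and 0 were higher (0.985%, 1.86%, 0.38%, and 2.26%). In all 4 lines 28 members were lower (67.7% of all genes) and 0 higher (0.285%). Their mean change over the 4 lines was above that median in 41 of 44 members with the spike-in scaling, by 0.30 for the median member. Scaling moves all genes of a library alike, so a distance from this median hardly depends on it. Changes of members against SH-EP are given below as deposited, relative to the library total, and every one of them is negative with spike-in scaling.

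As deposited, 22 members were higher in all 4 MYCN lines, as were 2218 of the 11575 genes (19.2%). None was lower in all 4 (13.4%). The 22 were ORC2, ORC6, MCM2, MCM3, MCM4, MCM5, MCM7, CDC45, GINS3, PCNA, RFC1, RFC3, RFC4, RFC5, POLA1, PRIM1, POLD1, POLE, FEN1, RPA2, E2F1, and E2F2. In 25 members each of the 12 MYCN-line libraries lay above each of the 3 SH-EP libraries, as in 21.8% of all genes, and in 0 members each lay below (16.5%). On the mean over the 4 lines, 39 members were called higher (34.6% of all genes) and 0 lower (26.3%), and ORC3, ORC5, GINS1, LIG1, and RPA1 did not pass the test, with mean log2 changes of -0.08, 0.18, 0.14, 0.04, and 0.06.

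**Figure D1:**
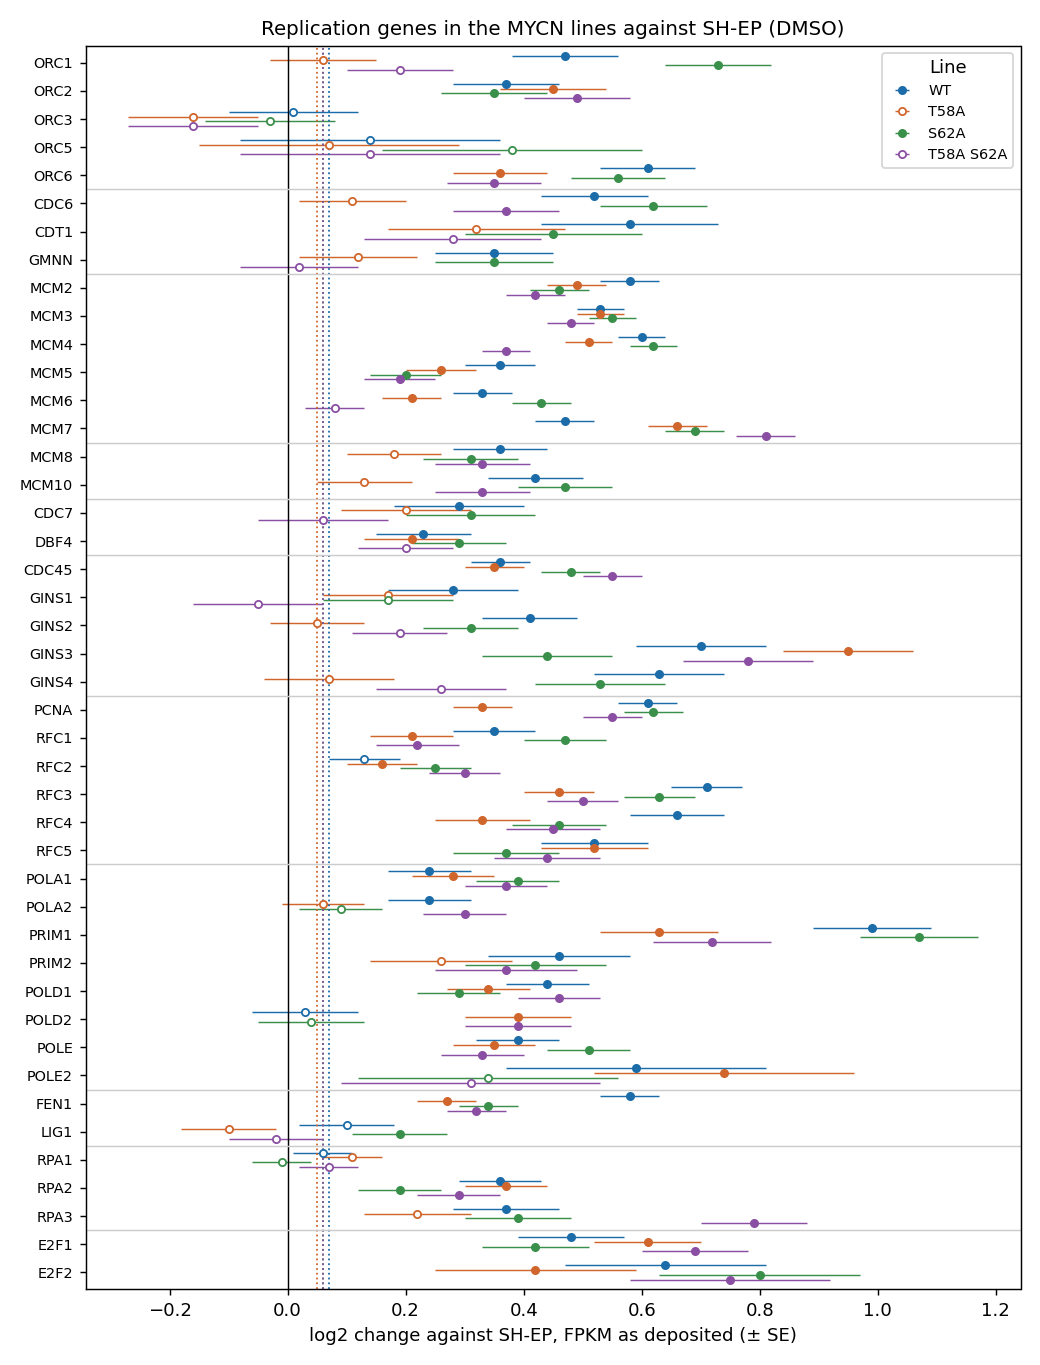
Log2 change (± SE) of each of the 44 members against SH-EP in DMSO, on FPKM as deposited, grouped by role from origin recognition (top) to activators (bottom). Colours are the 4 MYCN lines, filled points passed the adjusted p of 0.05 in limma, and dotted lines are the median of all 11575 genes in each line. Nearly all points lie to the right of the dotted lines; with spike-in scaling all 176 values are below 0.

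The highest mean change was that of PRIM1, the catalytic subunit of primase, which makes the RNA primers of each new strand. PRIM1 was at 17.8, 18, and 17.9 in SH-EP, 34.8, 32.6, and 39.9 in WT, 28.7, 26.1, and 28.3 in T58A, 34.4, 38.8, and 39.8 in S62A, and 28.8, 35.8, and 25.3 in T58A S62A FPKM. The lowest MYCN-line library lay above all SH-EP libraries. Its mean log2 change was 0.85 (SE 0.08, adjusted p = 2.25e-09, limma), from 0.63 in T58A to 1.07 in S62A. The gene spans chromosome 12, 57124222 to 57146158 of GRCh37, on the minus strand. PRIM2, its partner, had a mean change of 0.38 and POLA1, the catalytic subunit of polymerase alpha, of 0.32.

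GINS3, a subunit of the GINS complex that joins CDC45 and the MCM ring in the active helicase, had the next highest mean change. GINS3 was at 7.9, 7.64, and 8.59 in SH-EP, 12.3, 14.5, and 12.5 in WT, 15, 15.5, and 16.2 in T58A, 10.8, 10.8, and 11.3 in S62A, and 14.1, 13.8, and 13.6 in T58A S62A FPKM. The groups did not overlap, and S62A was the closest to SH-EP. The mean log2 change was 0.71 (SE 0.08, adjusted p = 1.01e-07, limma). Its complex did not move as one: GINS1, GINS2, and GINS4 had mean changes of 0.14, 0.24, and 0.37, and the first of these did not pass the test. CDC45 had a mean change of 0.44 (SE 0.04, adjusted p = 1.84e-09, limma).

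All 6 subunits of the MCM2-7 helicase were higher in WT, T58A, and S62A, and all except MCM6 were in T58A S62A; with spike-in scaling all 6 were lower on the mean. MCM7 was at 114, 119, and 113 in SH-EP, 161, 174, and 145 in WT, 181, 181, and 185 in T58A, 183, 185, and 190 in S62A, and 205, 194, and 209 in T58A S62A FPKM. Every MYCN-line library lay above SH-EP, and the T58A S62A libraries were the highest. Its mean log2 change was 0.66 (SE 0.04, adjusted p = 6.4e-13, limma). MCM3 was at 60.1, 61.3, and 58.2 in SH-EP, 85.5, 86.2, and 88.2 in WT, 83.9, 88.6, and 86.1 in T58A, 84, 90, and 88.5 in S62A, and 85, 82.9, and 82.3 in T58A S62A FPKM. The 4 MYCN lines lay close together, with log2 changes of 0.48 to 0.55, and their mean was 0.52 (SE 0.03, adjusted p = 2.97e-12, limma). MCM4 was at 63.2, 57.9, and 59.2 in SH-EP, 89.6, 91.1, and 93.2 in WT, 86.6, 83.4, and 86 in T58A, 91.4, 96.7, and 89.3 in S62A, and 80.8, 79.6, and 73.4 in T58A S62A FPKM, and its mean change was 0.53 (SE 0.03).

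MCM2, MCM5, and MCM6 make up the rest of the ring. MCM2 was at 51.5, 53.8, and 53.2 in SH-EP, 76.3, 87.2, and 73.6 in WT, 69.6, 75.2, and 77.5 in T58A, 71.7, 73.8, and 72.7 in S62A, and 73.4, 65.3, and 73.8 in T58A S62A FPKM. No MYCN-line library reached the SH-EP range, and WT library b was the highest. MCM5 was at 57.5, 58.5, and 62.8 in SH-EP, 71.5, 85, and 72.9 in WT, 71.6, 74, and 68.7 in T58A, 67.5, 67.1, and 70.9 in S62A, and 69.4, 62.6, and 71.6 in T58A S62A FPKM. Here T58A S62A library b fell within the SH-EP range and the mean change was 0.25 (SE 0.05). MCM6 was at 42.5, 41, and 39 in SH-EP, 50.5, 49.9, and 53.7 in WT, 48.5, 45.4, and 47.7 in T58A, 55, 56.2, and 54.1 in S62A, and 42.5, 44.1, and 42.7 in T58A S62A FPKM. S62A was the highest, and the lowest T58A S62A library and the highest SH-EP library both rounded to 42.5, with a change of 0.08 (SE 0.05, adjusted p = 0.164, limma).

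**Figure D2:**
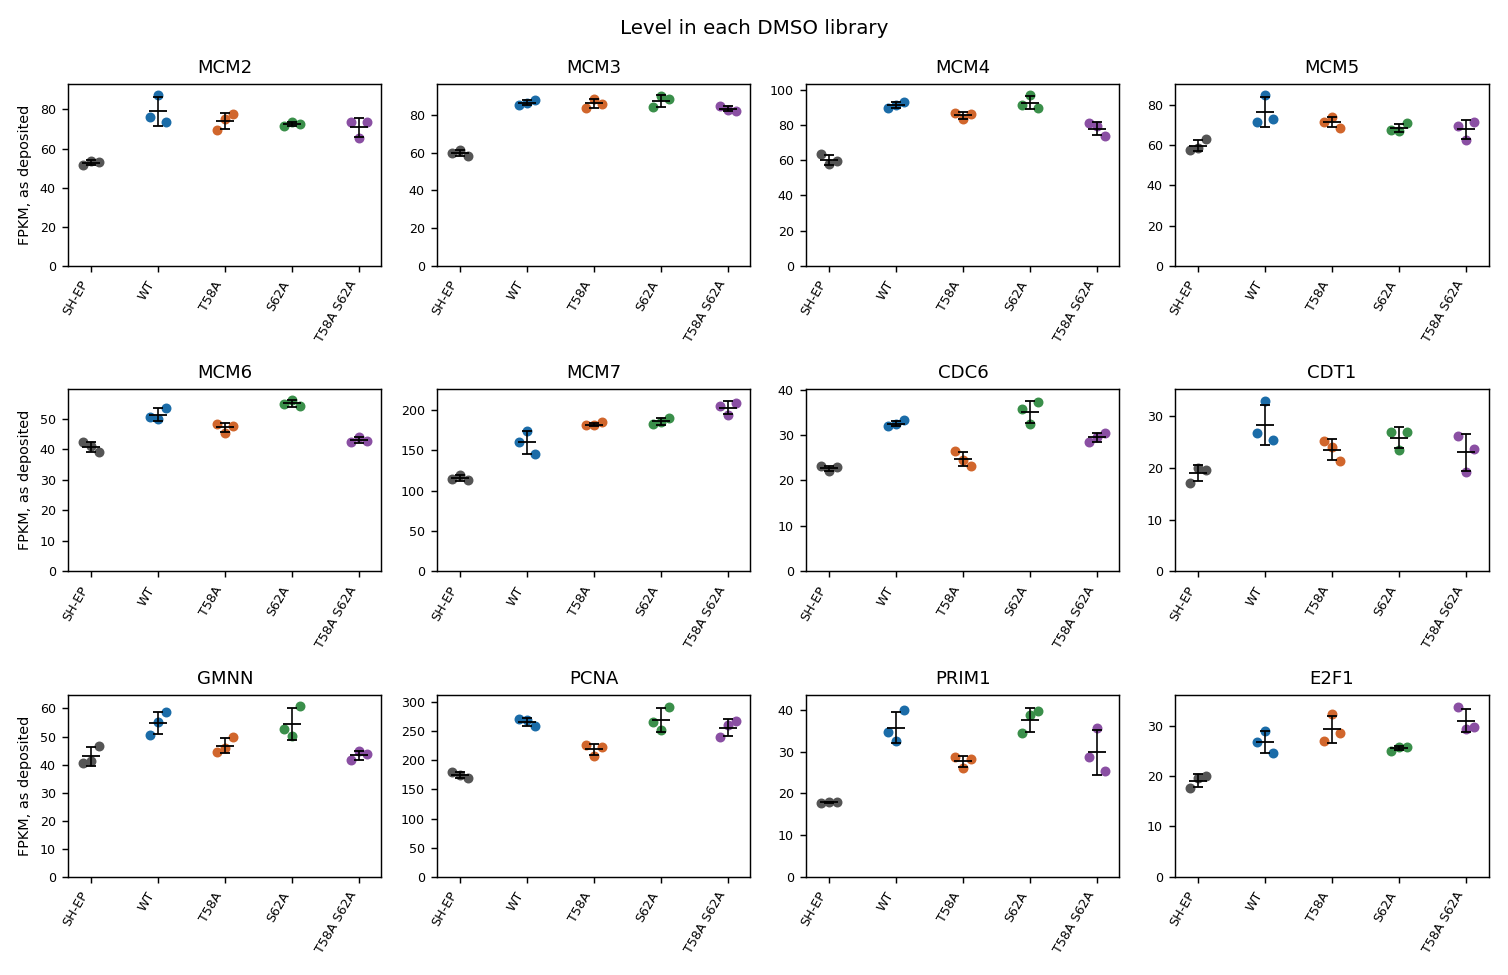
FPKM as deposited (linear axes from 0) of 12 members in each DMSO library, with 3 points a line and black bars for mean ± SD. MCM2, MCM3, MCM4, MCM7, PCNA, PRIM1, and E2F1 show no overlap between SH-EP and the MYCN lines, while GMNN overlaps in T58A and T58A S62A; with spike-in scaling the mean changes of all 12 are negative.

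The licensing factors did not pass in every MYCN line. CDC6, an ATPase that helps load MCM2-7 around DNA at origins marked by ORC, was at 23.1, 22.1, and 23 in SH-EP, 32, 32.5, and 33.2 in WT, 26.4, 24.4, and 23.2 in T58A, 35.7, 32.5, and 37.2 in S62A, and 28.5, 29.5, and 30.4 in T58A S62A FPKM. T58A lay just above SH-EP, with a change of 0.11 (SE 0.09, adjusted p = 0.32, limma), while the changes of WT, S62A, and T58A S62A were 0.52, 0.62, and 0.37 and passed the test. CDT1, its partner in loading, was at 17.1, 20, and 19.5 in SH-EP, 26.8, 32.8, and 25.4 in WT, 25.1, 24.1, and 21.3 in T58A, 26.9, 23.4, and 27 in S62A, and 26.1, 19.1, and 23.7 in T58A S62A FPKM. It passed in WT (0.58) and S62A (0.45), and T58A S62A library b lay within the SH-EP range. GMNN was at 40.4, 41.4, and 46.7 in SH-EP, 50.7, 55, and 58.8 in WT, 44.5, 45.8, and 49.7 in T58A, 52.5, 50.3, and 60.9 in S62A, and 41.6, 44.7, and 43.6 in T58A S62A FPKM. It was higher in WT and S62A, with a change of 0.35 in each, and the T58A and T58A S62A libraries overlapped those of SH-EP. The mean change of GMNN, 0.21 (SE 0.08, adjusted p = 0.0262, limma), was no longer past the threshold without SH-EP DMSO library a (0.17, adjusted p = 0.141) or b (0.19, adjusted p = 0.107).

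ORC1, the subunit of ORC whose level varies with the cell cycle, had the same order of lines as CDC6. ORC1 was at 11.3, 12.4, and 11.4 in SH-EP, 16.6, 16.1, and 16 in WT, 12.3, 13.1, and 11.2 in T58A, 20.4, 18.8, and 19.5 in S62A, and 14.3, 12.3, and 13.5 in T58A S62A FPKM. WT and S62A lay above SH-EP, by 0.47 and 0.73 on the log2 scale, and T58A and T58A S62A overlapped it, with changes of 0.06 and 0.19. In contrast, ORC2 and ORC6 were higher in all 4 lines, with mean changes of 0.41 and 0.47, and ORC3 in none.

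PCNA and its loader were higher as a group. PCNA was at 179, 175, and 169 in SH-EP, 271, 269, and 258 in WT, 226, 208, and 222 in T58A, 265, 251, and 292 in S62A, and 239, 260, and 268 in T58A S62A FPKM. T58A was the nearest to SH-EP, and no library overlapped. The mean change was 0.53 (SE 0.04, adjusted p = 4.04e-11, limma). RFC3 was at 33.2, 35.1, and 34.7 in SH-EP, 54.6, 52.6, and 62.1 in WT, 48.3, 45.2, and 47.9 in T58A, 57.8, 55, and 47.5 in S62A, and 46.8, 51.8, and 47.5 in T58A S62A FPKM. All MYCN-line libraries lay above SH-EP, and the mean change was 0.58 (SE 0.05, adjusted p = 6.63e-10, limma). RFC1, RFC2, RFC4, and RFC5 had mean changes of 0.31, 0.21, 0.47, and 0.46, and all passed; RFC2 in WT (0.13) did not. Of the RPA genes, RPA2 and RPA3 had mean changes of 0.30 and 0.44, whereas RPA1 did not pass in any line.

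E2F1 and E2F2 are activators of S phase genes. E2F1 was at 17.7, 19.6, and 20 in SH-EP, 26.8, 28.9, and 24.5 in WT, 27, 32.3, and 28.6 in T58A, 25, 25.8, and 25.8 in S62A, and 33.7, 29.4, and 29.8 in T58A S62A FPKM. No library overlapped, and T58A S62A was the highest. The mean change was 0.55 (SE 0.07, adjusted p = 1.59e-07, limma). E2F2 was at 2.62, 2.83, and 2.63 in SH-EP, 4.3, 4.75, and 3.76 in WT, 3.27, 4.32, and 3.41 in T58A, 4.63, 5.19, and 4.46 in S62A, and 5.04, 4.58, and 4.24 in T58A S62A FPKM. It was low throughout, so the change on the log2(FPKM + 0.1) scale, 0.65 (SE 0.13, adjusted p = 0.000148, limma), slightly understates the ratio.

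The promoters of the members were searched for the E-box CACGTG, which MYC family proteins bind with MAX, and for the E2F sites TTTCCCGC, TTTCGCGC, TTTGCCGC, and TTTGGCGC, on both strands, in the 300 bases before the annotated start. An E2F site was found in 15 of 44 members (34.1%) and in 570 of 10379 tested genes with a start (5.49%). The E-box was found in 5 members (11.4%), MCM2, MCM7, MCM8, FEN1, and RPA1, and in 10.8% of the tested genes. In the MCM2-7 ring, MCM3, MCM4, MCM5, MCM6, and MCM7 held an E2F site and MCM2 held none. TTTGGCGC on one strand and TTTCGCGC on the other overlap in the run TTTGGCGCGAAA and were counted apart. A match describes letters and not a bound site, and the absence of one says only that these letters were not in the window.

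The 200 bases before the outermost annotated start (GRCh37, minus strand, written 5′ to 3′) are given for the activator E2F1 (chr20:32274192-32274391) and the helicase subunit MCM6 (chr2:136634014-136634213), both chosen after their matches were seen, and for ORC5 (chr7:103848496-103848695) and RPA3 (chr7:7758239-7758438), the members with the largest and the smallest fall with CYC065. Capitals mark the E2F sites, and ORC5 and RPA3 held neither motif.
E2F1: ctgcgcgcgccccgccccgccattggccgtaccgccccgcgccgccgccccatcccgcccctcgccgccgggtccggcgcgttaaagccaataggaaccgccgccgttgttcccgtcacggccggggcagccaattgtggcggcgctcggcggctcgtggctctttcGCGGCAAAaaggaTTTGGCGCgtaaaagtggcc
MCM6: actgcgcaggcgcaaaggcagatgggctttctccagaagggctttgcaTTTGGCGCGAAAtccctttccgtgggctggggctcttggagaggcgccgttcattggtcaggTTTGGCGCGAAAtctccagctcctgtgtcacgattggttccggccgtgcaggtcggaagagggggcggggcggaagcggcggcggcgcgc
ORC5: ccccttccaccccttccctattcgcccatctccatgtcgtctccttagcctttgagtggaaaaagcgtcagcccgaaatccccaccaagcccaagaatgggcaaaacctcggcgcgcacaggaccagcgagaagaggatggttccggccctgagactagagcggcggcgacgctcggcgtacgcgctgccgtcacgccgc
RPA3: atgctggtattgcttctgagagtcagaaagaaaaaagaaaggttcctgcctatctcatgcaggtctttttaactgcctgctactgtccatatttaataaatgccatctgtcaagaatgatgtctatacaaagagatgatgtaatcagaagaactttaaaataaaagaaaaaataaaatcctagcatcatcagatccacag

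The mutants were compared with WT MYCN in DMSO to ask how the members differed between these lines. With 1 derivation per line, an effect of the phosphorylation sites cannot be told apart from other differences between lines. As deposited, T58A had 2 members higher (10.7% of all genes tested were) and 11 lower (13%), S62A 2 higher (10.1%) and 1 lower (14%), and T58A S62A 5 higher (9.43%) and 11 lower (14.2%), by limma at an adjusted p under 0.05. The count of 11 in T58A S62A was 7 without WT DMSO library c and 6 without T58A S62A DMSO library a. The 2 higher in T58A were 1 without WT DMSO c, and the 2 higher in S62A were 1 without WT DMSO a or any S62A DMSO library. The 1 lower in S62A was 3 without WT DMSO c, and 2 without WT DMSO a, S62A DMSO b, T58A DMSO c, T58A CYC065 a or c, T58A S62A DMSO b, or T58A S62A CYC065 c. With spike-in scaling the counts were 1 higher (8.1% of all genes) and 0 lower (0.432%) in T58A, 0 (0.181%) and 41 (74.9%) in S62A, and 9 (23.3%) and 0 (1.02%) in T58A S62A, where the median of all genes moved to 0.28, -0.71, and 0.40. MYCN itself was at 5.72 ± 0.778 FPKM in S62A, 8.52 ± 1.29 in T58A, 12.9 ± 1.09 in WT, and 13.5 ± 3.83 in T58A S62A (SD, n = 3 each), and the part of this in the differences was not tested.

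As deposited MCM7 was higher than in WT in all 3 mutants (1.75% of all genes were), with changes of 0.19, 0.22, and 0.35 for T58A, S62A, and T58A S62A, and turned to -0.48 in S62A with spike-in scaling. FEN1 was lower in all 3 (2.06%), with changes of -0.31, -0.23, and -0.25, and turned to 0.17 in T58A S62A with spike-in scaling. Without WT DMSO library c, 1 member differed in 1 direction in all 3. As deposited, GINS4 was lower than WT in T58A (-0.56, SE 0.11, adjusted p = 0.000611, limma) and T58A S62A (-0.37), and with spike-in scaling neither passed, at -0.26 (adjusted p = 0.373) and 0.05. ORC1 was lower in T58A (-0.41) and T58A S62A (-0.28) and higher in S62A (0.27), and with spike-in scaling it turned to 0.14 in T58A S62A and -0.43 in S62A. CDC6 (-0.40), PCNA (-0.28), and PRIM1 (-0.36) were lower in T58A, and RPA3 was higher in T58A S62A (0.42). POLD2, a subunit of polymerase delta, was higher by 0.36 in both lines with T58A. With spike-in scaling, ORC1, CDC6, PCNA, PRIM1, and FEN1 in T58A lay between -0.11 and 0.02, PCNA on the positive side, and none of these passed, whereas POLD2 in T58A and T58A S62A (0.66 and 0.79) and RPA3 in T58A S62A (0.84) kept their direction and passed.

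CYC065 was compared with DMSO in each line on spike-in scaled FPKM, since the spike-ins were added by cell number. Scaled values thus refer to the number of cells counted, and an error in that count could not be seen in these bulk samples. By limma, 42 members were lower in SH-EP (76.3% of all genes were), 44 in WT (93.7%), 44 in T58A (84.5%), 44 in the S62A line (90.2%), and 40 in the T58A S62A line (76.4%), and none was higher, where 0.89%, 0.769%, 1.24%, 0.959%, and 1.84% of all genes were in the same order. In all 5 lines, 39 members were lower, as were 69.8% of all genes, and none was higher (0.484%). On the mean over the 5 lines all 44 were lower (94.4%), and none was higher (1.57%). Since most genes tested were lower too, these counts are to be read beside that background. The median log2 change of the members was -1.20 for SH-EP, -1.66 for WT, -1.06 for T58A, -1.46 for S62A, and -1.02 for the double mutant line, beside -1.08, -1.58, -1.09, -1.35, and -0.98 for all genes.

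The spread between members was wide, from 12% of the DMSO level left for ORC5 to 67.4% for RPA3 on the mean over 5 lines. Medians differed by role, and the lowest were those of small groups. The 3 licensing factors had a median change of -2.45, the firing kinase pair of -2.34, and the 5 ORC subunits of -1.98, where the median of all genes was -1.20. These groups were not uniform, with ORC3 at -1.10 and GMNN at -1.63. In other groups RFC4, GINS1, and GINS3 changed by -2.63, -2.60, and -2.41, so the order of medians does not follow the order of action. The MCM2-7 helicase had a median of -0.84 and the 3 RPA genes of -0.62. The CMG partners of the helicase (-1.09), the clamp and loader (-1.25), and the polymerases with primase (-1.22) lay near the median of all genes. Levels went with the change: over the 44 members, Pearson's r between the mean change and the log2 mean FPKM was 0.51 and Spearman's rho 0.57, beside 0.37 and 0.42 over 10572 tested genes with a span. The mean FPKM was taken over all 30 libraries, those with CYC065 included. A larger fall thus lowers the level itself, so part of each correlation is built in. These are correlations across genes, which share libraries and are not independent replicates. With the length of the gene, r was 0.04 over the members, beside -0.18 over the 10572 tested genes.

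**Figure D3:**
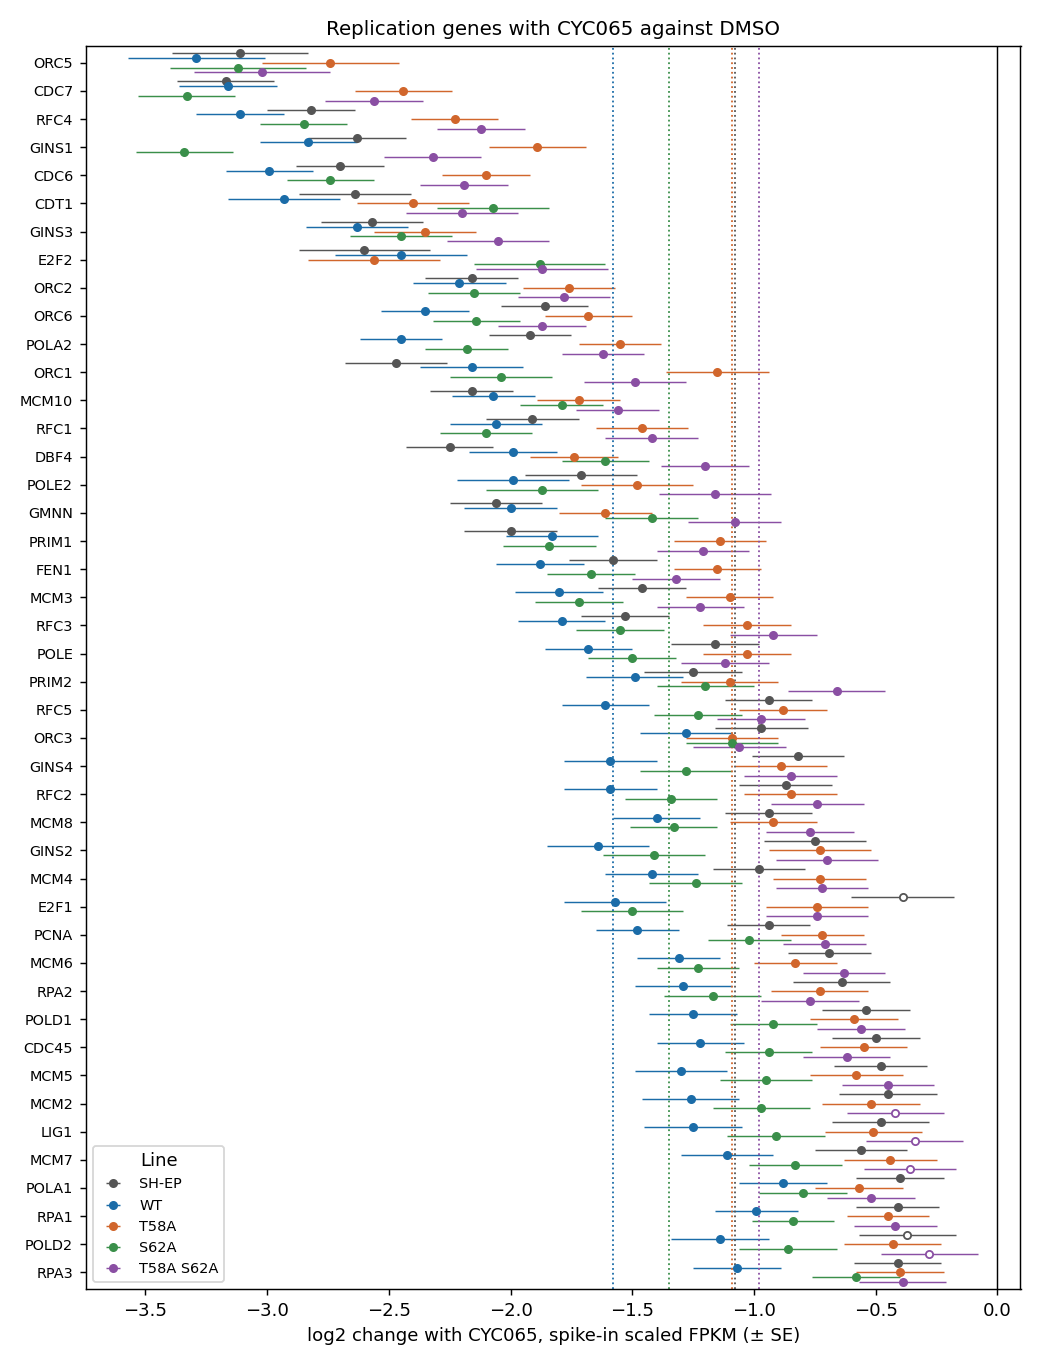
Log2 change (± SE) with CYC065 against DMSO in each of the 5 lines (colours), on spike-in scaled FPKM, for the 44 members ordered by their mean change. Filled points passed the adjusted p of 0.05 in limma, and dotted lines are the median of all genes in each line. ORC5, CDC7, RFC4, GINS1, CDC6, and CDT1 lie left of all dotted lines, and RPA3, POLD2, RPA1, POLA1, and MCM7 lie right of the dotted line of their own line in all 5; on FPKM as deposited 22 members are higher and 20 lower on the mean over lines.

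ORC5, CDC7, and RFC4 had the largest falls. ORC5, a subunit of ORC, was at 66.5, 56.1, and 61.2 in SH-EP, 22.7, 34.2, and 28.1 in WT, 22.6, 40.9, and 38.4 in T58A, 20, 25.4, and 16.4 in S62A, and 44.7, 38.6, and 31.1 in T58A S62A in DMSO, in spike-in scaled FPKM. With CYC065 it was at 8.23, 6.86, and 6.1 in SH-EP, 3.24, 2.81, and 2.32 in WT, 5.79, 6.73, and 2.93 in T58A, 3.01, 1.48, and 2.53 in S62A, and 4.18, 3.88, and 5.88 in T58A S62A. Every treated library lay below every DMSO library of any line, and the mean log2 change over 5 lines was -3.05 (SE 0.12, adjusted p = 8.53e-19, limma). CDC7, the kinase that fires licensed origins, was at 38.6, 32.4, and 35.2 in SH-EP, 15.7, 19.6, and 18.8 in WT, 14.5, 24.5, and 25.6 in T58A, 11.5, 12.4, and 9.75 in S62A, and 22.2, 21.9, and 17.9 in T58A S62A in DMSO. With CYC065 it was at 4.98, 3.4, and 3.36 in SH-EP, 2.31, 2.02, and 1.52 in WT, 3.81, 3.55, and 3.95 in T58A, 1.02, 0.996, and 1.05 in S62A, and 2.83, 3.77, and 3.66 in T58A S62A. Again no treated library reached a DMSO library, and the mean change was -2.93 (SE 0.09). RFC4, a subunit of the clamp loader, was at 168, 162, and 150 in SH-EP, 89.2, 131, and 98.4 in WT, 77.9, 118, and 119 in T58A, 56.1, 60.6, and 51.8 in S62A, and 133, 124, and 109 in T58A S62A in DMSO. With CYC065 it was at 22.6, 24.1, and 21.2 in SH-EP, 11.4, 13.9, and 10.9 in WT, 17.9, 23.4, and 24.9 in T58A, 8.54, 6.38, and 8.26 in S62A, and 21.9, 32.1, and 31.1 in T58A S62A. The groups did not overlap, and the mean change was -2.63 (SE 0.08), while RFC2 and RFC5 of the same complex changed by -1.08 and -1.13. ORC5, CDC7, and RFC4 were also lower in all 5 lines on FPKM as deposited, with mean changes of -1.72, -1.61, and -1.28.

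Both loading factors fell in each line. CDC6 was at 76.6, 67.9, and 74.8 in DMSO and 13.5, 9.59, and 10.8 with CYC065 in SH-EP, 36, 53.5, and 42.4 in DMSO and 5.84, 6.26, and 4.25 with CYC065 in WT, 31.6, 47.4, and 44.5 in DMSO and 8.19, 9.78, and 10.4 with CYC065 in T58A, 29.2, 30.4, and 26.8 in DMSO and 4.76, 3.79, and 4.17 with CYC065 in S62A, and 57.4, 53.3, and 48 in DMSO and 9.4, 13.4, and 12.1 with CYC065 in T58A S62A, in spike-in scaled FPKM. CDT1 was at 56.8, 61.6, and 63.3 in DMSO and 11.8, 10.6, and 7.07 with CYC065 in SH-EP, 30.2, 54, and 32.5 in DMSO and 4.65, 5.41, and 4.5 with CYC065 in WT, 30.1, 46.9, and 40.8 in DMSO and 9.25, 6.34, and 6.41 with CYC065 in T58A, 22, 21.9, and 19.5 in DMSO and 5.79, 3.9, and 5.4 with CYC065 in S62A, and 52.7, 34.6, and 37.5 in DMSO and 7.52, 9.04, and 10 with CYC065 in T58A S62A, in spike-in scaled FPKM. GMNN, which inhibits CDT1, was at 134, 127, and 152 in DMSO and 33.4, 36.3, and 29.3 with CYC065 in SH-EP, 57, 90.6, and 75.1 in DMSO and 19.3, 18.8, and 16.7 with CYC065 in WT, 53.4, 89.1, and 95.4 in DMSO and 22.1, 32.1, and 22.1 with CYC065 in T58A, 42.9, 47.1, and 43.8 in DMSO and 17.7, 14.5, and 17.7 with CYC065 in S62A, and 84, 80.8, and 68.8 in DMSO and 31.7, 39.9, and 39.2 with CYC065 in T58A S62A, in spike-in scaled FPKM. The mean changes of CDC6, CDT1, and GMNN over 5 lines were -2.54, -2.45, and -1.63, with SEs of 0.08, 0.10, and 0.09, and all treated libraries lay below the DMSO libraries of their line. On FPKM as deposited they were -1.20, -1.11, and -0.29. E2F2 behaved like them, with a mean change of -2.27 (SE 0.12), and its mean with CYC065 was between 0.971 and 2.22 spike-in scaled FPKM. E2F1 did not, and is described below.

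The smallest falls were those of RPA3, POLD2, and RPA1. RPA3, the smallest subunit of RPA, was at 71.9, 52.5, and 54.4 in SH-EP, 26, 38.2, and 31.9 in WT, 28.4, 42.8, and 36 in T58A, 19.6, 21.1, and 18.8 in S62A, and 62.8, 60.5, and 48.4 in T58A S62A in DMSO. With CYC065 it was at 48.3, 48.9, and 36.9 in SH-EP, 16.5, 15.7, and 13.1 in WT, 23.1, 28.8, and 28.6 in T58A, 14.5, 12.1, and 13.4 in S62A, and 37.3, 46, and 47.6 in T58A S62A. The T58A libraries overlapped between treatments, and those of the other lines did not. The mean change was -0.57 (SE 0.08, adjusted p = 1.31e-07, limma). POLD2 was at 273, 285, and 285 in SH-EP, 97.5, 170, and 101 in WT, 149, 221, and 202 in T58A, 73, 84.6, and 64.1 in S62A, and 244, 179, and 198 in T58A S62A in DMSO. With CYC065 it was at 237, 229, and 188 in SH-EP, 51.9, 64.7, and 46.2 in WT, 141, 146, and 132 in T58A, 47.1, 34, and 41.5 in S62A, and 140, 195, and 176 in T58A S62A. It did not pass in SH-EP (-0.37, adjusted p = 0.0844) or T58A S62A (-0.28, adjusted p = 0.187, limma). RPA1, the largest subunit of RPA, was at 129, 114, and 121 in SH-EP, 45.1, 62.1, and 51.1 in WT, 51.2, 75.2, and 79.3 in T58A, 30.8, 35.2, and 27.1 in S62A, and 83.3, 74.5, and 58.2 in T58A S62A in DMSO. With CYC065 it was at 93.9, 98.9, and 81 in SH-EP, 25.9, 30.2, and 23.4 in WT, 48.8, 50.5, and 49 in T58A, 17.9, 14.9, and 18.9 in S62A, and 44.4, 60.1, and 56 in T58A S62A. The T58A S62A libraries overlapped between treatments, those of the other 4 lines did not, and the mean change was -0.62 (SE 0.08). On FPKM as deposited RPA3, POLD2, and RPA1 were higher in all 5 lines, with mean changes of 0.78, 0.73, and 0.72.

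**Figure D4:**
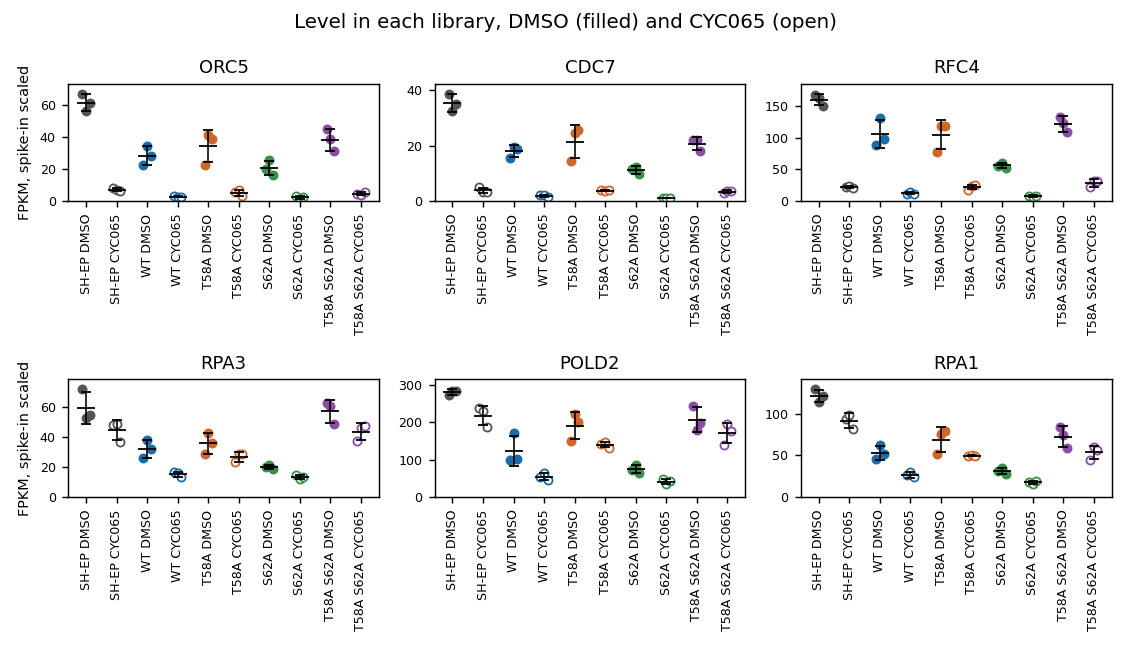
Spike-in scaled FPKM (linear axes from 0) in each library of the 5 lines for the members with the largest (ORC5, CDC7, RFC4) and smallest (RPA3, POLD2, RPA1) falls, DMSO filled and CYC065 open, with mean ± SD. Open points of the first 3 lie below all filled points, at 32.1 or less, and those of the last 3 overlap the filled points in T58A (RPA3) or T58A S62A (POLD2 and RPA1); on FPKM as deposited the last 3 were higher with CYC065.

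The ring lay above the median of all genes, except MCM3. MCM2 was at 171, 166, and 173 in DMSO and 130, 132, and 112 with CYC065 in SH-EP, 85.9, 144, and 94 in DMSO and 44.1, 51.2, and 37.2 with CYC065 in WT, 83.5, 146, and 149 in DMSO and 83.6, 87.3, and 83.8 with CYC065 in T58A, 58.7, 69.1, and 52.4 in DMSO and 34.1, 26.3, and 31.1 with CYC065 in S62A, and 148, 118, and 117 in DMSO and 76.9, 114, and 96.7 with CYC065 in T58A S62A, in spike-in scaled FPKM. MCM7 was at 379, 368, and 367 in DMSO and 269, 267, and 220 with CYC065 in SH-EP, 181, 286, and 186 in DMSO and 96.6, 116, and 85.2 with CYC065 in WT, 218, 351, and 354 in DMSO and 228, 225, and 211 with CYC065 in T58A, 149, 173, and 137 in DMSO and 95.4, 74.7, and 88.3 with CYC065 in S62A, and 414, 351, and 330 in DMSO and 238, 324, and 294 with CYC065 in T58A S62A, in spike-in scaled FPKM. In both, the T58A libraries overlapped between treatments. Neither passed in T58A S62A, where the changes were -0.42 (adjusted p = 0.0585) and -0.36 (adjusted p = 0.0776, limma). MCM6 was at 141, 126, and 127 in DMSO and 85.6, 89.4, and 70.3 with CYC065 in SH-EP, 56.8, 82.2, and 68.7 in DMSO and 26.7, 33.3, and 23.8 with CYC065 in WT, 58.1, 88.2, and 91.5 in DMSO and 41.9, 45.1, and 44.3 with CYC065 in T58A, 45, 52.6, and 39 in DMSO and 20.8, 17, and 20 with CYC065 in S62A, and 85.7, 79.8, and 67.4 in DMSO and 44.2, 54.2, and 51.9 with CYC065 in T58A S62A, in spike-in scaled FPKM. Its mean change was -0.94 (SE 0.08), beside -0.73 for MCM2, -0.66 for MCM7, and -1.46 for MCM3, the member of the ring that fell most. PCNA was at 595, 538, and 548 in DMSO and 315, 321, and 244 with CYC065 in SH-EP, 305, 443, and 330 in DMSO and 128, 143, and 113 with CYC065 in WT, 271, 404, and 427 in DMSO and 217, 226, and 214 with CYC065 in T58A, 217, 235, and 210 in DMSO and 115, 96.5, and 115 with CYC065 in S62A, and 483, 469, and 422 in DMSO and 237, 322, and 288 with CYC065 in T58A S62A, in spike-in scaled FPKM, and its mean change was -0.97 (SE 0.07, adjusted p = 1.02e-12, limma). On FPKM as deposited MCM2, MCM4, MCM5, MCM6, MCM7, and PCNA were higher with CYC065 in all 5 lines, as were 14 members and 28.5% of all genes, whereas 13 members and 24.4% of all genes were lower. On the mean over the lines as deposited, 22 members (46.9% of all genes) were higher and 20 (39.8%) lower. Those 13 were ORC2, ORC5, ORC6, CDC6, CDT1, MCM10, CDC7, GINS1, GINS3, RFC1, RFC4, POLA2, and E2F2, which were lower with both scalings.

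The test of the difference in response asked whether each MYCN line and SH-EP responded differently to CYC065. Each line stands for 1 derivation, so an effect of MYCN cannot be told apart from other differences between lines. On spike-in scaled FPKM, the response of 4 members was more negative in WT (14.1% of all genes were) and that of 1 in S62A (1.72%), by limma. The response of 1 was less negative in T58A (2.35%) and that of 3 in T58A S62A (5.27%). In the other direction of each line there was no member, where 1.82% of all genes were less negative in WT, 3.11% less negative in S62A, 0.311% more negative in T58A, and 0.19% more negative in T58A S62A. No member differed in all 4 lines, where 1.39% of all genes did in the less negative and 0.0346% in the more negative direction. At an unadjusted p under 0.05, 18, 6, 7, and 9 members differed in WT, S62A, T58A, and T58A S62A, as did 41.2%, 19.5%, 12.1%, and 14.3% of all genes. The median difference of all genes was -0.51 in WT, -0.28 in S62A, -0.01 in T58A, and 0.08 in T58A S62A. The count of 1 in T58A was 1 in each fit without 1 library, and the other counts moved with single libraries. The 4 in WT became 17 without WT DMSO library a, 11 without WT CYC065 library b, 16, 7, 9, and 13 without T58A DMSO a, T58A DMSO b, T58A S62A CYC065 a, and SH-EP CYC065 c, 0 without WT DMSO b, WT CYC065 a or c, SH-EP DMSO a or b, or SH-EP CYC065 a or b, 1 without S62A DMSO a, S62A CYC065 c, T58A CYC065 a, T58A S62A CYC065 c, or SH-EP DMSO c, and 2 without S62A CYC065 a or T58A CYC065 b or c. The 1 in S62A became 0 without S62A DMSO a or b, S62A CYC065 b, SH-EP DMSO a or b, or SH-EP CYC065 a or b, and 2 without T58A DMSO a. The 3 in T58A S62A became 1 without its DMSO library c, its CYC065 library b or c, SH-EP DMSO a or c, or SH-EP CYC065 c, and 5 without its CYC065 library a. The share of all genes in these fits is not given here, so the shifts are not read as particular to the members. The spike-in factor, which sets the whole library, ranged within a group by 0.05 to 0.70 on the log2 scale, most in T58A DMSO and next in WT DMSO (0.55).

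E2F1 and ORC1 were the members that differed from SH-EP in the same direction in at least 2 lines. E2F1 was at 58.7, 60.2, and 64.9 in DMSO and 49.7, 48.7, and 42.3 with CYC065 in SH-EP, 30.1, 47.7, and 31.3 in DMSO and 11.2, 14.9, and 10.1 with CYC065 in WT, 32.4, 62.7, and 54.9 in DMSO and 27.5, 32.1, and 27.3 with CYC065 in T58A, 20.5, 24.1, and 18.6 in DMSO and 8.33, 5.95, and 8 with CYC065 in S62A, and 67.9, 53.2, and 47 in DMSO and 29.7, 35.7, and 33.9 with CYC065 in T58A S62A, in spike-in scaled FPKM. In SH-EP the treated libraries lay below the DMSO libraries but the change, -0.39, did not pass (adjusted p = 0.0947, limma), whereas it was -1.57 in WT and -1.50 in S62A and -0.74 in both other lines. The difference from SH-EP was -1.18 in WT (SE 0.30, adjusted p = 0.0242, limma) and -1.11 in S62A (SE 0.30, adjusted p = 0.0271). On FPKM as deposited it passed in all 4 MYCN lines in the same direction (4.79% of all genes did), with -0.76 in WT and -0.88 in S62A. Each of the 2 calls was lost in 7 of the fits that left out a library. For WT these were WT DMSO b, WT CYC065 a and c, SH-EP DMSO a and b, and SH-EP CYC065 a and b, with adjusted p up to 0.0896. For S62A they were S62A DMSO a and b, S62A CYC065 b, and the same SH-EP libraries, with adjusted p up to 0.0989.

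ORC1 moved the other way. ORC1 was at 37.4, 38.2, and 37.2 in DMSO and 7.19, 7.03, and 5.91 with CYC065 in SH-EP, 18.7, 26.5, and 20.5 in DMSO and 4.68, 5.84, and 3.97 with CYC065 in WT, 14.7, 25.5, and 21.5 in DMSO and 9.31, 8.86, and 8.76 with CYC065 in T58A, 16.7, 17.6, and 14.1 in DMSO and 4.18, 2.93, and 4.56 with CYC065 in S62A, and 28.8, 22.3, and 21.2 in DMSO and 6.23, 9.6, and 10.2 with CYC065 in T58A S62A, in spike-in scaled FPKM. Its log2 change was -2.47 in SH-EP, -2.16 in WT, -2.04 in S62A, -1.49 in T58A S62A, and -1.15 in T58A. The difference from SH-EP was 1.32 in T58A (SE 0.29, adjusted p = 0.0102, limma), where the call held in every fit that left out a library, with an adjusted p of at most 0.0369, and 0.99 in T58A S62A (SE 0.29, adjusted p = 0.0439), where it was lost in 17 of them. As deposited, the 3 members ORC1, DBF4, and MCM10 had a less negative response in all 4 MYCN lines, as did 5.33% of all genes. DBF4, the activator of CDC7, differed in T58A S62A with spike-in scaling (1.04, SE 0.25, adjusted p = 0.00904, limma), also in every fit that left out a library. DBF4 was at 80.2, 72.4, and 73.5 in DMSO and 17.4, 15.3, and 14.8 with CYC065 in SH-EP, 30.5, 43.6, and 37.3 in DMSO and 9.88, 9.39, and 8.37 with CYC065 in WT, 32.4, 49.1, and 56.3 in DMSO and 12.1, 13.9, and 14.2 with CYC065 in T58A, 24.6, 25.8, and 20.6 in DMSO and 8.05, 6.97, and 8 with CYC065 in S62A, and 47.2, 54.5, and 43.4 in DMSO and 17.3, 25.4, and 20.6 with CYC065 in T58A S62A, in spike-in scaled FPKM.

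**Figure D5:**
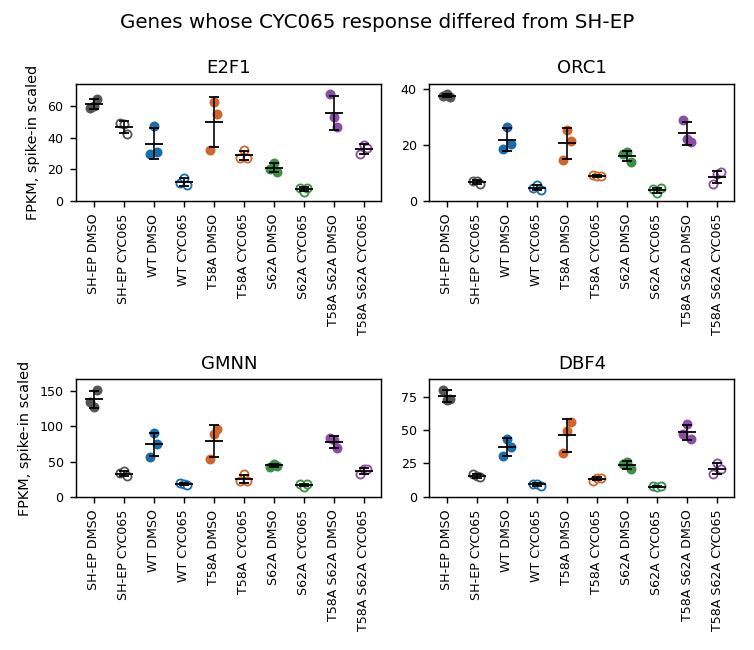
Spike-in scaled FPKM (linear axes from 0) of E2F1, ORC1, GMNN, and DBF4 in each library, DMSO filled and CYC065 open, with mean ± SD. For E2F1 the open SH-EP points stay between 42.3 and 49.7, near the filled ones (58.7 to 64.9), while those of WT lie between 10.1 and 14.9; for ORC1 the T58A points fall from a mean of 20.6 to 8.98, beside 37.6 to 6.71 in SH-EP.

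A further 50 genes of replication and its control, listed by role, were read beside the members, and all 50 were tested. Against SH-EP, on the mean over the 4 MYCN lines as deposited, 32 were higher (34.6% of all genes) and 4 lower (26.3%), with a median log2 change of 0.28 beside 0.06 for all genes, and with spike-in scaling 1 was higher (1.09%) and 48 lower (91.4%). Of 7 genes of chromatin replication 6 were higher, among them UHRF1, which helps copy DNA methylation (0.78), and the chromatin assembly factor subunits CHAF1A (0.64) and CHAF1B (0.62). Of 14 genes of G1/S control 8 were higher and 1 lower. As deposited the highest changes were those of E2F5 (1.82, SE 0.18, adjusted p = 4.78e-09, limma), a repressive E2F factor, CCNE1 (1.51), the cyclin that activates CDK2, and CDC25A (0.61), a phosphatase that activates CDKs. With spike-in scaling E2F5 (0.58) passed, CCNE1 (0.27, adjusted p = 0.135, limma) did not, and CDC25A turned to -0.64. Of 10 further polymerase and loader subunits 7 were higher and 2 lower, with POLD4 at -1.41, POLE3 at 0.76, and POLE4 at 0.57. Of 11 genes of origin firing and fork protection 8 were higher and 1 lower, with TIPIN at 0.55, TICRR at 0.42, and ORC4 at 0.39. Of 8 genes of dNTP supply 3 were higher, TYMS (0.36), RRM2 (0.25), and DTYMK (0.23), and none was lower. With spike-in scaling the medians of these 5 lists were all negative, between -1.07 and -0.81.

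With CYC065, all 50 were lower on the mean over the 5 lines with spike-in scaling, as were 94.4% of all genes, with a median of -1.53 beside -1.20 for all genes. The dNTP supply genes fell least (median -0.66), led by DCK and RRM2 at -1.06 each, and all 8 were higher on FPKM as deposited. The G1/S control genes fell most (median -1.90), led by E2F5 (-4.15), CCNE2 (-3.84), and E2F8 (-3.45), followed by the chromatin replication genes (-1.81), with CHAF1A at -3.20 and ASF1A at -3.01. The genes of origin firing and fork protection had a median of -1.58, with CLSPN, an adaptor of the replication checkpoint, at -2.25, TIPIN at -2.21, and TICRR at -2.03. The further polymerase and loader subunits had a median of -1.01, with POLD3 at -3.29, ATAD5 at -3.11, and CHTF8 at -2.80.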

How the data were processed

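RNA was mixed with ERCC spike-ins according to cell number by the authors and selected for poly(A), and the reads were aligned to hg19 with HISAT2. The deposited FPKM come from Cufflinks, run for first-strand libraries. The annotation is not given in the sources used here. The deposited FPKM are not scaled to the spike-ins. Between 40.6% and 45.8% of genes were at 0 in a library, a 0 can be a failed estimate, and counts were not used here, so no interval from counting error is given. No 2 libraries were identical, and correlations within groups were 0.925 to 0.959.

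Lines were compared on deposited FPKM, and CYC065 with DMSO on FPKM rescaled to give every library the same median log2 spike-in level (55 spike-ins, each averaging 1 FPKM or more). The 11575 genes averaging 1 FPKM or more were fitted with limma 3.58.1 in R 4.3.3 (lmFit, eBayes with trend) on log2(FPKM + 0.1), in 1 model over 10 groups. Benjamini-Hochberg adjusted p under 0.05, two-sided and over all genes, was the threshold. On data simulated for WT against SH-EP with 11575 genes, 145 of 200 changed genes were recovered and 13 unchanged genes were called. The simulated noise was independent between genes and on FPKM as deposited, so it does not cover the spike-in scaled comparisons. The simulation changed 200 genes by a few fixed sizes, whereas 31.6% of all genes were higher and 22.6% lower in WT. Its recovered share thus does not carry over to the changes of the members. The study's methods name a test for box plots of changes over gene sets and a gene set enrichment analysis, and no test of single genes, for these libraries. Positions, starts, and sequences are those of GRCh37 with GENCODE 44 lifted to it.

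The members and lists were chosen with earlier results of these data known. By rule, values of each library are given for the MCM2-7 subunits, CDC6, CDT1, GMNN, ORC1, E2F1, E2F2, and PCNA. They are also given for the 5 members, of those higher in all 4 lines, whose smallest change was largest. Up to 5 falling members were allowed, of which there were none. The rule adds the 3 largest and 3 smallest falls with CYC065, and members whose response differed in at least 2 lines. Of the other lists, it names up to 3 genes. The promoter of PRIM1, which the rule also names, is not printed because it overlaps annotated UTRs. Alternatives tried were pseudocounts 1 and 0.01, a filter of 5 FPKM or none, the other scaling, centring on the library median, spike-ins of at least 50 FPKM, only the groups compared, a change of 1.5-fold, and leave-one-out fits, with a block for the number in each column name added after seeing the data.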

Additional observations from a re-analysis of the deposited data

Results flagged for a closer look

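A test of the difference in CYC065 response between a MYCN line and SH-EP (limma's interaction, spike-in scaled FPKM, adjusted over 11575 genes) passed for 9 pairs of member and line. Of all genes, 14.1% passed as more negative and 1.82% as less negative in WT, and 1.72% and 3.11% in S62A. These shares were 0.311% and 2.35% in T58A, and 0.19% and 5.27% in T58A S62A. The 9 calls are thus to be read beside that background. The response of ORC1 was less negative by 1.32 in T58A and 0.99 in T58A S62A, that of GMNN by 0.99 and that of DBF4 by 1.04 in T58A S62A. In WT it was more negative, with differences of -0.82 for MCM5, -0.72 for CDC45, -0.89 for GINS2, and -1.18 for E2F1, and in S62A with -1.11 for E2F1. The median difference of all genes was -0.51 in WT, -0.28 in S62A, -0.01 in T58A, and 0.08 in T58A S62A. As deposited the WT differences were smaller, at -0.39 for MCM5, -0.30 for CDC45, -0.46 for GINS2, and -0.76 for E2F1, and with libraries centred on their median they were -0.35, -0.26, -0.43, and -0.72. The other 5 were 1.25 and 0.80 for ORC1, 0.81 for GMNN, 0.86 for DBF4, and -0.88 for E2F1 in S62A as deposited, and all 9 passed with each of these scalings. The calls of ORC1 in T58A and DBF4 in T58A S62A held in each of the 30 fits without 1 library. The others were lost in 6 to 17 of them: 17 for ORC1 in T58A S62A and for CDC45, 15 for MCM5, 12 for GINS2, 7 for each E2F1 call, and 6 for GMNN.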

How the results depend on the processing

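Column names end in 0 to 2 and the labels in 1 to 3, so which library has which labelled number is not known. With the column number as a replicate block, chosen after seeing the data, 22 members were higher in all 4 MYCN lines, 41 were lower with CYC065 in all 5, and 2 differed from WT in all 3 mutants, whereas the 4 with a response in WT more negative than in SH-EP became 13. The shares of all genes with the block are not given here, so these counts describe the members alone. The numbers did not pair the libraries: over 135 pairs with the same number, deviations from the group means correlated between -0.13 and 0.16 (median 0.00), and 13 of 30 libraries correlated best with their own number. Pseudocounts, filters, spike-ins of at least 50 FPKM, and a fit of only the groups compared moved no main count past 1.5 times and reversed no value, except that members different from WT in all 3 mutants were 1 with only the groups compared. With a change of 1.5-fold required, 1 member was higher in all 4 MYCN lines and 0 differed from WT in all 3 mutants.

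The scaling changed the most. With spike-in scaling of the lines, 0 members were higher (0.285% of all genes) and 28 lower (67.7%) in all 4 MYCN lines. The median change of the members was -0.90. In all 3 mutants 0 members differed from WT, where 5 of the 11575 genes were higher and 10 lower. Mean changes against SH-EP reversed for all named members: ORC1 -0.89, ORC5 -1.08, CDC6 -0.85, CDT1 -0.85, GMNN -1.05, MCM2 -0.77, MCM3 -0.74, MCM4 -0.73, MCM5 -1.01, MCM6 -1.0, MCM7 -0.60, CDC7 -1.04, GINS3 -0.54, PCNA -0.73, RFC3 -0.68, RFC4 -0.79, PRIM1 -0.40, POLD2 -1.05, RPA1 -1.20, RPA3 -0.82, E2F1 -0.70, and E2F2 -0.58. With CYC065 on FPKM as deposited, 13 members were lower in all 5 lines (24.4% of all genes), and the median change was 0.06. A response different from SH-EP in all 4 lines was seen in 4 members, where 5.33% of all genes differed upward and 4.79% downward. The mean changes over the 4 MYCN lines that reversed were MCM2 0.57, MCM4 0.34, MCM5 0.55, MCM6 0.37, MCM7 0.68, PCNA 0.39, RFC3 0.05, POLD2 0.69, RPA1 0.69, RPA3 0.76, and E2F1 0.23. With libraries centred on their median, 10 members were lower in all 5 lines, as were 2287 of the 11575 genes, and 19 were higher, as were 4094 genes. The median of the members was 0.22. In all 4 lines 6 responses differed, 5 of them upward (661 genes) and 1 downward (379 genes). The reversed changes were GMNN 0.01, MCM2 0.75, MCM3 0.08, MCM4 0.51, MCM5 0.72, MCM6 0.54, MCM7 0.86, PCNA 0.56, RFC3 0.22, PRIM1 0.03, POLD2 0.86, RPA1 0.86, RPA3 0.93, and E2F1 0.40.

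Leaving out each library in turn gave 20 to 24 members higher in all 4 MYCN lines, 0 lower, a median of 0.35 to 0.37 for the mean of the line medians, 33 to 42 lower with CYC065 in all 5 lines, a median of -1.33 to -1.25, 0 responses that differed in all 4 lines, and 1 to 3 members different from WT in all 3 mutants. The mean change of CDC7 against SH-EP lost its call without S62A DMSO a, SH-EP DMSO b or c, T58A DMSO c, T58A S62A DMSO b, or WT DMSO a or c (0.18 to 0.21), and with no filter (0.22), and that of POLD2 without SH-EP DMSO a (0.17). In the fit of only the groups compared that of ORC5 passed (0.18, adjusted p = 0.0135, limma). FPKM give no counts, so what depth limits could not be computed, and the CYC065 libraries were the shallower ones.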
